A study of Homo sapiens with 6 samples.

Results

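Early-response genes are switched on by growth factor and stress signals from factors that the cell already holds, without new protein synthesis, and many of their mRNAs are short-lived. The 10 genes described here were chosen by symbol from the 63009 genes read from the deposited table. They are the zinc-finger transcription factors EGR1, EGR2 and EGR3, the Krüppel-like factors KLF2, KLF4, KLF6 and KLF10, the immediate early response genes IER2 and IER3, and MYC. In growth factor signaling, ERK phosphorylates ETS-type cofactors of serum response factor (SRF), which drives EGR1 and its relatives through the CArG box. KLF proteins are related to SP1 and bind GC-rich DNA, IER3 is a short protein known as an ERK substrate and a regulator of apoptosis, and MYC binds the E-box as a dimer with MAX.

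The study asked which transcripts change when oncogenic H-RasV12 is active in mitosis. RNA-seq was done on 6 libraries of ERRAS cells, IMR90 primary human fibroblasts that carry H-RasV12 fused to the estrogen receptor ligand-binding domain, introduced by retrovirus and kept under G418, so that control cells carried the construct as well. The 3 control libraries came from uninduced cells and the 3 Ras-induced libraries from cells induced for 4 days. By the labels the inducer was 100 nM tamoxifen, whereas the methods name 4-hydroxytamoxifen and give its dose by mass. Both groups grew in 20% fetal calf serum at 3% oxygen, were arrested with 1 µM DME (an inhibitor of the mitotic kinesin Eg5) and were collected as detached mitotic cells. The study states that the experiment was repeated independently 3 times, and the labels tie no control library to a Ras-induced one.

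Values are FPKM, sequenced fragments scaled by transcript length and by the number of mapped fragments. Relative to the first control library, the steps between low FPKM values gave depths of 0.951 and 1.17 for the other controls and 1.13, 0.85 and 0.974 for the Ras-induced libraries 1, 2 and 3. HRAS, whose reads can come from the gene or the construct, averaged 1164 ± 20.3 FPKM in the controls against 1586 ± 226.5 FPKM after induction (n = 3 each, SD; limma adjusted p = 0.0431). Of 6 fibroblast markers, the lowest value in any library was 47.5 FPKM (PDGFRB). COL1A2 and THY1 fell. COL1A1 and COL3A1 had log2 fold changes of -1.43 and -1.25 without passing (limma adjusted p = 0.0501 and 0.0553), and VIM and PDGFRB had 0.06 and -0.04. The 6 markers' summed level ran from 4642 to 5243 FPKM in control and from 3010 to 4239 FPKM in Ras-induced libraries. Among markers of other cell types the leukocyte marker PTPRC and the endothelial marker CDH5 reached at most 0.0140 and 0.0353 FPKM, CD3E and PECAM1 were listed at 0 throughout, and neither tested epithelial marker of 4 listed was altered. The epithelial markers summed to 5.72 to 11.3 FPKM in control and 4.36 to 7.17 FPKM in Ras-induced libraries, and EPCAM, under the minimum for testing, averaged 1.24 and 0.288 FPKM with groups that did not overlap. CD68, another leukocyte marker, measured 25.2 to 30.7 FPKM in control and 30.5 to 35.6 FPKM in Ras-induced libraries and was not altered (limma adjusted p = 0.145). Of 4 endothelial markers TIE1 alone was tested and rose by 1.24 on the log2 scale (limma adjusted p = 0.0450), and the sum of the 4 ran from 0.869 to 2.36 FPKM in control and from 2.85 to 5.78 FPKM in Ras-induced libraries. The 6 mitotic genes listed as markers had log2 fold changes from -0.30 to -0.14, of which PLK1 and BUB1 fell, and summed to 1489 to 1533 FPKM in control and 1231 to 1367 FPKM in Ras-induced libraries. The part of these markers in the results was not tested. In bulk RNA, a change in the share of cells that use a gene and a change in RNA per cell cannot be told apart.

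The sequences before the start of a gene show which of these genes hold a CArG box close by. RefSeq promoter windows (GRCh38.p14, a later build than the hg19 of the files) were matched by symbol for 6 of the 10 genes, with 3 starts for EGR2, and none for EGR3, KLF10, IER3 and MYC. The 250 bases before each start were searched on both strands for the CArG box, the EGR site GCGNGGGCG, the CRE TGACGTCA, the ETS site CCGGAAG and the E-box CACGTG, which did not overlap one another in these windows. Shown are the 2 EGR windows with a CArG box and, for contrast, the IER2 and KLF2 windows without one. EGR1 (chr5:138465229-138465478, plus strand) has its CArG boxes and its EGR site in capitals, EGR2 (chr10:62816367-62816616, minus strand) its CArG box, IER2 (chr19:13150161-13150410, plus strand) the reverse complement of the ETS site, and KLF2 (chr19:16324576-16324825, plus strand) the EGR site.
EGR1: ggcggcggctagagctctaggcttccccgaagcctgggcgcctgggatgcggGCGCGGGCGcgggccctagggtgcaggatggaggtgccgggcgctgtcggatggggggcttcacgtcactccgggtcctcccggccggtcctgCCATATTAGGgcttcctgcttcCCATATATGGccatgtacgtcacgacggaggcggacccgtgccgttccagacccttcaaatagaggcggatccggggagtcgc
EGR2: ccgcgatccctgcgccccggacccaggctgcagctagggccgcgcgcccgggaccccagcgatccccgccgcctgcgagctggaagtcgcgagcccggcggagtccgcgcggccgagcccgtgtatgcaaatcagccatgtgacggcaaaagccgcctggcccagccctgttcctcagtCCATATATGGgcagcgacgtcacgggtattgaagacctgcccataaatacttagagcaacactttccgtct
IER2: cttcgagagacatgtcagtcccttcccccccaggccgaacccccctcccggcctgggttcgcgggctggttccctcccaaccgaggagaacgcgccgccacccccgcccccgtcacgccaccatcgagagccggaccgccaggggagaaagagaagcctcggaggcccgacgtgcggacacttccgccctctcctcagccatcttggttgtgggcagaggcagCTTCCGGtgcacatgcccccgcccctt
KLF2: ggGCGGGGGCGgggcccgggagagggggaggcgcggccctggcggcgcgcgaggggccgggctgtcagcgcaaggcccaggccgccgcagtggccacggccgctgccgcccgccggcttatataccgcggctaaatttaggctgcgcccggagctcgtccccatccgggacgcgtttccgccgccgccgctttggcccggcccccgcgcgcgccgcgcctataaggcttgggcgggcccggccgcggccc

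EGR1 held 2 CArG boxes, which begin 105 and 83 bases before the start, and 1 of the 3 EGR2 starts held 1 at 71 bases. A CArG box stood in 1.16% of all 35116 windows. The EGR site stood in the windows of EGR1, KLF2, KLF4 and KLF6 and in 8.41% of all windows. The ETS site stood in that of IER2 and in 8.52% of all, the E-box in those of KLF4, KLF6 and another EGR2 start and in 6.34% of all, and the CRE in no member's window and in 1.65% of all. These are matches of letters and say nothing of binding in these cells.

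Of the 10 genes, EGR1, EGR3 and IER3 rose in Ras-induced mitotic cells, and no member fell by the same test. All 3 rose by more than 2-fold in mean FPKM. IER2 was higher and MYC lower without passing the test, and KLF2, KLF6 and KLF10 did not pass it either. The test was limma on log2(FPKM + 1) over the 13993 genes that averaged 1 FPKM or more, and altered genes are those whose p, adjusted by Benjamini-Hochberg, was 0.05 or less. Of the members 8 were tested, and EGR2 and KLF4 lay under the minimum. Over all tested genes 16.7% were altered, 11.0% higher and 5.67% lower, that is 1543 and 793 genes. With quantile normalization the split was 1044 higher and 1109 lower, and with upper-quartile scaling 921 and 1101. With 1 library left out, 860 to 1872 genes were altered in place of 2336. Across all tested genes the log2 fold change had a median of 0.10 as deposited, 0.01 after quantile normalization and 0.0047 after upper-quartile scaling. As EGR3 reached the minimum only through the Ras-induced libraries, the count of 3 is not read as a share of the tested members.

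**Figure D1:**
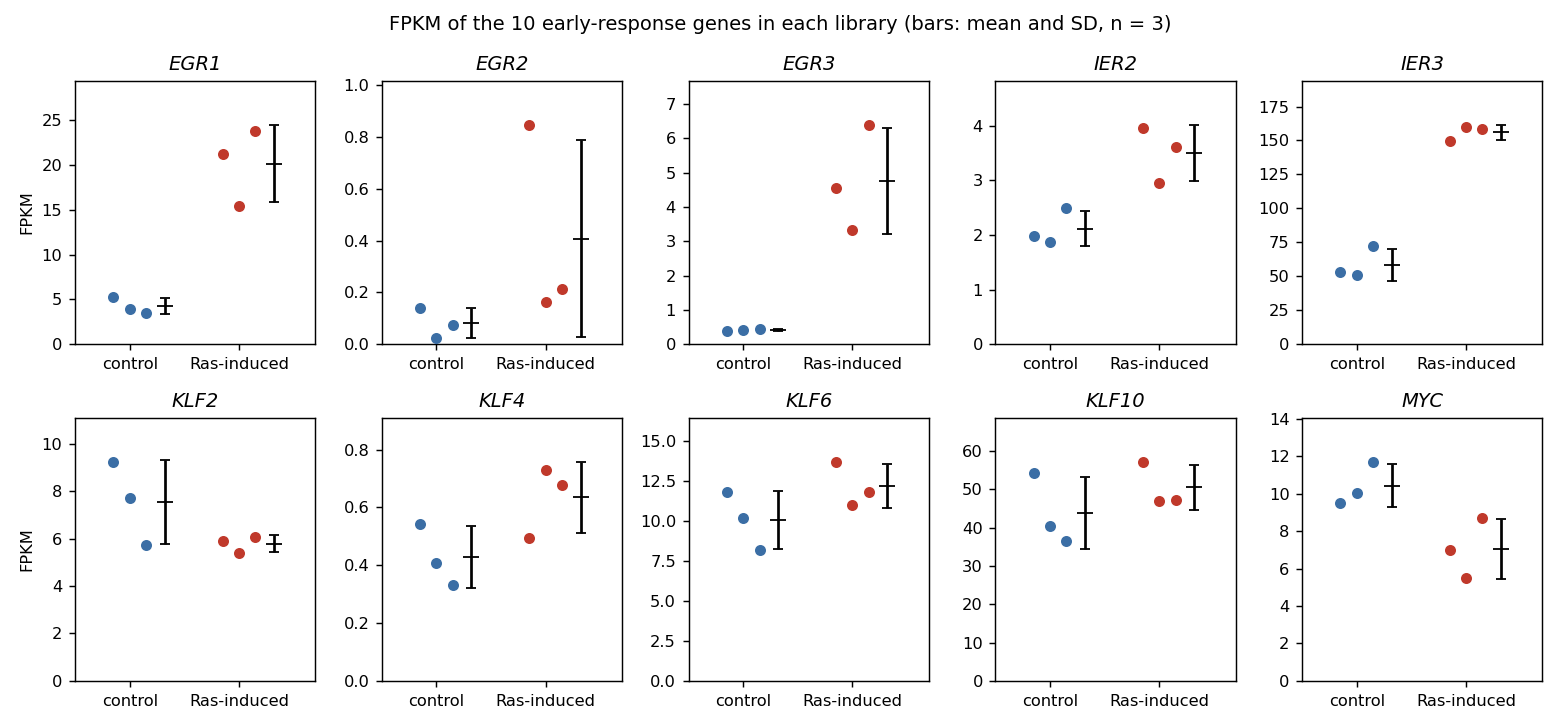
FPKM of each member (vertical axis, from 0) in the 3 control (blue) and 3 Ras-induced (red) libraries, with the group mean and SD as black bars. The lowest Ras-induced value of EGR1, 15.4 FPKM, is above the highest control value, 5.28 FPKM, whereas the groups of KLF2, KLF4, KLF6 and KLF10 overlap.

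EGR1 (ENSG00000120738, chromosome 5 of GRCh37 from 137801168 to 137804992, plus strand) encodes the founding member of the EGR zinc-finger factors. It measured 5.28, 3.95 and 3.51 FPKM in control libraries 1, 2 and 3 and 21.2, 15.4 and 23.8 FPKM in Ras-induced libraries 1, 2 and 3. The lowest Ras-induced library was 2.92 times the highest control. The group means were 4.25 ± 0.920 and 20.2 ± 4.32 FPKM (n = 3, SD), a ratio of 4.74. The log2 fold change was 2.00 on the log2(FPKM + 1) scale (SE 0.19, limma adjusted p = 0.00279). Its control mean was higher than that of 26.8% of the tested genes, and its Ras-induced mean was higher than 60.9% of them.

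EGR3 (ENSG00000179388, chromosome 8 from 22545172 to 22550993, minus strand), a relative of EGR1 that binds the same GC-rich site, was scarcely present in control cells. Its levels were 0.375, 0.425 and 0.451 FPKM in control libraries and 4.54, 3.33 and 6.39 FPKM in Ras-induced ones. The lowest Ras-induced value was 7.37 times the highest control. The means were 0.417 ± 0.0387 and 4.75 ± 1.55 FPKM (n = 3, SD), a ratio of 11.4. As the pseudocount shrinks differences of low genes, the log2 fold change was 1.99 (SE 0.22, limma adjusted p = 0.00405), and 3.18 with a pseudocount of 0.1. EGR3 passed the filter only through the Ras-induced libraries, and without a filter on low values its limma adjusted p was 0.0171. An unnamed lncRNA on the opposite strand (ENSG00000253125) overlaps EGR3, with 0 FPKM in all controls but 0.405, 0.10 and 0.616 FPKM after induction. The library kit does not mark strand, so reads from the overlap cannot be told apart.

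EGR2 (ENSG00000122877, chromosome 10 from 64571756 to 64578927, minus strand), the EGR factor known for its role in myelinating Schwann cells, had the lowest level of the 3 EGR members. It measured 0.140, 0.0245 and 0.0760 FPKM in control and 0.847, 0.165 and 0.213 FPKM in Ras-induced libraries. The groups did not overlap, but Ras-induced library 2 exceeded control library 1 by only 1.18 times, and Ras-induced library 1 stood far above the other two. The difference in log2(FPKM + 1) was 0.35, with an exact permutation p = 0.1 (two-sided), the smallest that 3 libraries against 3 allow. Without Ras-induced library 1 the difference was 0.14. When all genes above 0 were tested its adjusted p from limma was 0.378.

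Within each library EGR3 also gained on EGR1, a comparison that a constant scaling factor per library leaves as it is. The ratio of EGR3 to EGR1 in FPKM, a measure per transcript length, was 0.0710, 0.108 and 0.128 in control and 0.214, 0.216 and 0.268 in Ras-induced libraries. The 2 groups did not overlap in this ratio. It averaged 0.102 ± 0.0291 and 0.233 ± 0.0307 (SD, n = 3), and an exact test of 3 libraries against 3 cannot go below p = 0.1.

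IER3 (ENSG00000137331, chromosome 6 from 30710976 to 30712325, minus strand) was the most abundant member in Ras-induced cells. It measured 53.0, 50.7 and 72.2 FPKM in control and 149.9, 160.0 and 158.3 FPKM in Ras-induced libraries. The Ras-induced libraries lay close together, with an SD of 3.46% of their mean against 20.1% in control. The means were 58.7 ± 11.8 and 156.1 ± 5.40 FPKM (n = 3, SD), a ratio of 2.66. The log2 fold change was 1.41 (SE 0.14, limma adjusted p = 0.00283). IER3 is listed in 6 rows, 5 of which were at 0 in every library, and the row of highest mean was used. The lncRNA genes IER3-AS1 and HCG20 overlap it on the opposite strand, and neither exceeded 0.219 FPKM in any library.

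IER2 (ENSG00000160888, chromosome 19 from 13261225 to 13265725, plus strand), a small nuclear protein of the early response, measured 1.99, 1.87 and 2.49 FPKM in control and 3.96, 2.95 and 3.61 FPKM in Ras-induced libraries. The groups did not overlap, and among all tested genes 39.9% did not, 27.1% with the Ras-induced libraries above. The means were 2.12 ± 0.325 and 3.50 ± 0.514 FPKM (n = 3, SD). The log2 fold change of 0.53 (SE 0.16, limma adjusted p = 0.0632) did not pass, and passed at 0.0451 when limma was run without its mean-variance trend. Over all alternatives that adjusted p ran from 0.0451 to 0.156. A lncRNA gene on the opposite strand (ENSG00000267598) overlaps IER2 and was listed higher than it, at 5.41, 3.36 and 5.09 FPKM in control and 10.3, 5.0 and 8.59 FPKM in Ras-induced libraries. The reads of this pair cannot be told apart without strand.

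**Figure D2:**
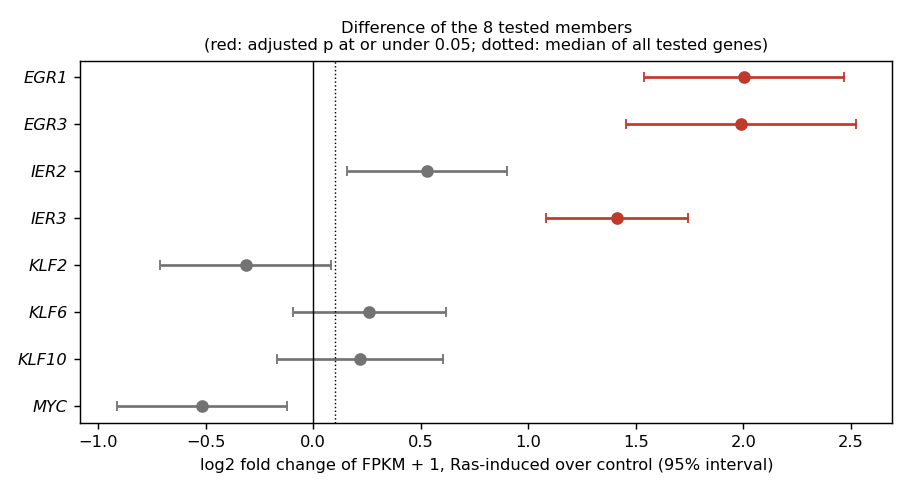
Log2 fold change of the 8 tested members on the log2(FPKM + 1) scale (horizontal axis), Ras-induced over control, with the 95% interval from limma. Red points (EGR1, EGR3 and IER3) passed the test, at 2.00, 1.99 and 1.41, and the dotted line marks the median of all tested genes, 0.10.

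MYC (ENSG00000136997, chromosome 8 from 128747680 to 128755197, plus strand) was the member with the largest negative difference. It measured 9.52, 10.03 and 11.7 FPKM in control and 6.98, 5.51 and 8.70 FPKM in Ras-induced libraries, so that each Ras-induced library was below each control. The means were 10.4 ± 1.15 and 7.06 ± 1.60 FPKM (n = 3, SD). The log2 fold change was -0.52 (standard error 0.17, 95% interval from -0.91 to -0.12, limma adjusted p = 0.0780), just outside the threshold. With quantile normalization it was -0.62 at a limma adjusted p = 0.0486, past it, and over all alternatives the adjusted p ran from 0.0486 to 0.196. Among all tested genes, groups that did not overlap with the Ras-induced libraries below made up 12.8%.

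The level of EGR1 relative to MYC turned over between the groups. In FPKM, EGR1 was 0.554, 0.394 and 0.30 times MYC in control libraries and 3.04, 2.79 and 2.74 times MYC in Ras-induced libraries. MYC was therefore above EGR1 in every control library and under it in every Ras-induced library.

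KLF2 (ENSG00000127528, chromosome 19 from 16435637 to 16439496, plus strand), known from endothelial and lymphocyte quiescence, measured 9.24, 7.70 and 5.71 FPKM in control and 5.91, 5.39 and 6.05 FPKM in Ras-induced libraries. The spread of the controls covered the upper 2 Ras-induced values. The log2 fold change was -0.31 (95% interval from -0.71 to 0.08, limma adjusted p = 0.239). KLF4 (ENSG00000136826, chromosome 9 from 110247133 to 110252763, minus strand), a factor of epithelial differentiation and of reprogramming to pluripotency, was under 1 FPKM in every library, at 0.543, 0.409 and 0.330 FPKM in control and 0.495, 0.731 and 0.678 FPKM in Ras-induced libraries. Its groups overlapped, with a difference of 0.20 in log2(FPKM + 1) and an exact permutation p = 0.2 (two-sided).

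KLF6 (ENSG00000067082, chromosome 10 from 3818188 to 3827473, minus strand), a widely expressed KLF with tumor suppressor activity, measured 11.8, 10.2 and 8.20 FPKM in control and 13.7, 11.0 and 11.8 FPKM in Ras-induced libraries. The groups overlapped, since control library 1 was above Ras-induced library 2. Its log2 fold change was 0.26 (95% interval from -0.09 to 0.62, limma adjusted p = 0.268). KLF10 (ENSG00000155090, chromosome 8 from 103661012 to 103667953, minus strand), also known as a TGF-β-inducible early gene, was abundant in both groups. It measured 54.3, 40.4 and 36.4 FPKM in control and 57.2, 46.9 and 47.3 FPKM in Ras-induced libraries, with overlapping groups. The log2 fold change was 0.22 (95% interval from -0.17 to 0.605, limma adjusted p = 0.395). For these 3 tested KLF genes the upper ends of the intervals, 0.08, 0.62 and 0.605, lay under the lower ends for EGR1, EGR3 and IER3, which were 1.54, 1.45 and 1.08. The genes were split into called and not called by the same test, which favors such a gap. The difference between genes was not itself tested.

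Ordered by mean FPKM, control cells had IER3, KLF10, MYC, KLF6, KLF2, EGR1, IER2, KLF4, EGR3 and EGR2, from highest to lowest. In this order the libraries of IER3 and KLF10 overlapped, as did those of MYC, KLF6 and KLF2 with their neighbors in this run, and those of KLF4 and EGR3. In Ras-induced cells the order was IER3, KLF10, EGR1, KLF6, MYC, KLF2, EGR3, IER2, KLF4 and EGR2. Here the neighbors from IER3 down to MYC had libraries that did not overlap. The neighbors from MYC to IER2 overlapped with each other, and so did KLF4 and EGR2. EGR1 ranked 6 in every control library and 3 in every Ras-induced library.

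**Figure D3:**
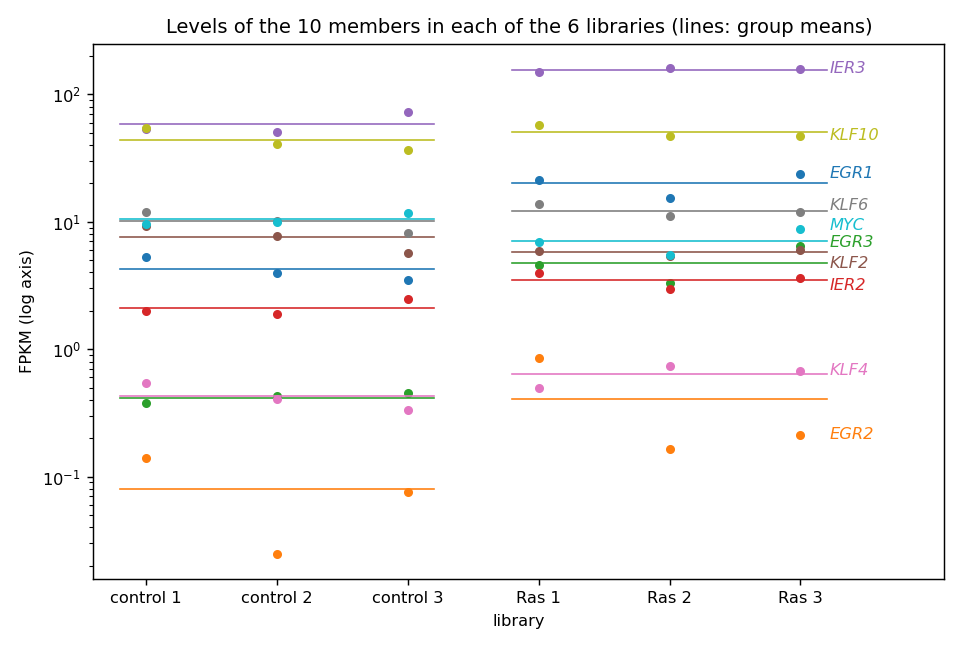
FPKM of the 10 members on a log axis in each of the 6 libraries, with horizontal lines for the group means. EGR1 lies under MYC, KLF6 and KLF2 in the controls and above them in the Ras-induced libraries, and IER3 separates from KLF10.

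The libraries of a group differed in the members' levels. The share of all tested genes with the same order was not counted, so the counts below are not read as a trait of the members. Ras-induced library 2 was the lowest of its group for 8 of the 10 genes, all but KLF4 and IER3. That library had the lowest relative depth of the 6 and the highest HRAS, 1847 FPKM, and the part of these in the members' levels was not tested. Among the controls, library 1 was the highest for 6 members (EGR1, EGR2 and the 4 KLF genes) and library 3 for the other 4. Without any single library, EGR1, EGR3 and IER3 were still the members called, and their log2 fold changes ranged from 1.88 to 2.18, from 1.79 to 2.18 and from 1.32 to 1.57.

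The members have few exons. In GENCODE 44 lifted to GRCh37, all 10 have fewer exons than the median of 9 over the 10959 tested genes with an annotated 3′ UTR, and 5 (EGR1, EGR2, EGR3, IER2 and IER3) have 2 exons, where 5.63% of those genes have 2 or fewer. Transcripts were shorter than the median of 3355 bases for 7 of them, IER3 being the shortest at 1237 bases. The pentamer ATTTA, the core of AU-rich elements that shorten mRNA life, stood in the 3′ UTR of 9 members and of 73.5% of those genes. Per base, 5 members were above the median of those genes. IER3 held 6 in 737 bases, more per base than 98.0% of them, whereas EGR1 and EGR3 exceeded 33.3% and 37.2%. MYC and KLF6 held 6 each in longer 3′ UTRs. The longer motif TTATTTATT stood in no member and in 9.59% of those genes. IER2 held none, EGR1 held 1 and KLF10, which was not called, held 3.

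Targets of ERK were listed as the other readout of the same pathway, with 14 genes of which 13 were tested. In Ras-induced cells 8 rose and none fell, beside 16.7% altered among all tested genes, and the median log2 fold change was 0.92. Since DUSP4 reached the minimum through the Ras-induced libraries alone, the count without it was 7 of 12 genes, with a median of 0.89. The list was drawn up with earlier results of these data known. DUSP6, a phosphatase that inactivates ERK, had the largest rise, from 2.49 ± 0.729 to 32.7 ± 10.04 FPKM (n = 3, SD), with a log2 fold change of 3.24 (limma adjusted p = 0.00198). DUSP4, another phosphatase of this family, and SPRED2, a membrane inhibitor of the Ras-Raf step, followed with 1.65 and 1.33. ETV4 and ETV5, ETS factors often induced by ERK, had 0.32 and 0.19 and did not pass, and were named after their values were seen. Without Ras-induced library 1 only 5 of these genes were called, and over all tested genes the altered count went from 2336 to 1042.

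Of 24 other early-response genes 18 were tested, and 4 rose and 2 fell, with a median log2 fold change of 0.24. That is 33.3% of those tested, beside 16.7% of all tested genes. Without IER5L, which was not altered and reached the minimum through the Ras-induced libraries alone, the median of the 17 others was 0.18. FOS, the AP-1 subunit regulated through the same kind of promoter as EGR1, rose from 1.40 ± 0.184 to 3.46 ± 0.0911 FPKM (n = 3, SD), a log2 fold change of 0.89 (limma adjusted p = 0.0101). JUNB and MCL1, an AP-1 subunit and an inhibitor of apoptosis, rose by 1.40 and 1.27 on the log2 scale, and SGK1, a serum-induced kinase, by 0.80. JUNB was not called without control library 1, control library 2, Ras-induced library 1 or Ras-induced library 3, nor SGK1 without any 1 of the 6 libraries. The genes that fell were CYR61, a secreted matrix protein, at -1.37, and FOSL1, another AP-1 subunit, at -1.18. JUN had 0.48 and a limma adjusted p = 0.0899. With quantile normalization 3 rose and 4 fell, as GADD45B and TNFAIP3 joined the falls, and with upper-quartile scaling 3 rose and 3 fell. SGK1 was called under neither. NR4A3, an orphan nuclear receptor, was under the minimum at 0.125 ± 0.0234 FPKM in control and 1.67 ± 0.840 FPKM in Ras-induced cells (SD, n = 3), and was named after its values were seen. It was called higher when the filter on low values was dropped.

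Of 10 cofactors and upstream regulators of the EGR genes, all tested, 3 rose and none fell, beside 11.0% higher and 5.67% lower among all tested genes, and their median log2 fold change was -0.08. NAB2, a corepressor that binds EGR proteins and is itself an EGR target, rose from 51.9 ± 3.85 to 79.0 ± 4.12 FPKM (n = 3, SD), with a log2 fold change of 0.60 (limma adjusted p = 0.00796). ELK1 and ELK3, ETS-type cofactors of SRF, rose by 0.69 and 0.36. SRF itself had a log2 fold change of -0.09 (95% interval from -0.39 to 0.21). Under both other scalings ELK1 and NAB2 rose and ETS1 fell. NAB2 was the single gene called without control library 2, Ras-induced library 1 or Ras-induced library 3, and ELK1 was also lost without control library 1 or Ras-induced library 2. The ratio of EGR1 to NAB2 in FPKM was 0.0953, 0.0751 and 0.0735 in control and 0.256, 0.194 and 0.319 in Ras-induced libraries, so EGR1 gained on NAB2 in each.

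Beyond the 4 members, 17 KLF and SP genes were listed and 11 tested, of which 1 rose and 1 fell, with a median log2 fold change of 0.00. Since KLF11 reached the minimum through the control libraries alone, the count without it was 1 of 10 genes, beside 16.7% altered among all tested genes, with a median of 0.02. KLF11, another TGF-β-inducible KLF, was not called without the filter on low values, and in the main test fell from 2.83 ± 0.964 to 0.946 ± 0.0374 FPKM (n = 3, SD), a log2 fold change of -0.94 (limma adjusted p = 0.0347), and KLF16 rose by 0.31. Both calls were lost without control library 1 or 2 or any 1 of the Ras-induced libraries, leaving 0 genes, and with either other scaling KLF11 was the single call. KLF5 had 3.63, 18.0 and 2.46 FPKM in Ras-induced libraries, so that library 2 alone carried its mean, and it was named after its values were seen.

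Of 12 MYC paralogs and partners in the MAX network 8 were tested, with 1 higher and 1 lower, that is 25.0% beside 16.7% of all tested genes, and a median log2 fold change of 0.15. MXD3, a MAX partner that opposes MYC, fell from 20.7 ± 2.14 to 8.35 ± 2.48 FPKM (n = 3, SD), a log2 fold change of -1.25 (limma adjusted p = 0.0102), and MLX rose by 0.74. MXD3 was no longer called without control library 1, control library 2 or Ras-induced library 1, which left MLX. MAX had a log2 fold change of 0.22 (95% interval from -0.28 to 0.72), and MYCN was listed at 0 in every library. Of 18 genes known as MYC targets 17 were tested, 3 rose (NME1, ODC1 and NOP16, by 0.74, 0.63 and 0.62) and none fell, with a median of 0.21. That is 17.6% of the tested targets, near the 16.7% of all genes, with ODC1 called in none of the fits that left out 1 library, and 1 target was left without control library 1, control library 2 or Ras-induced library 3.

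**Figure D4:**
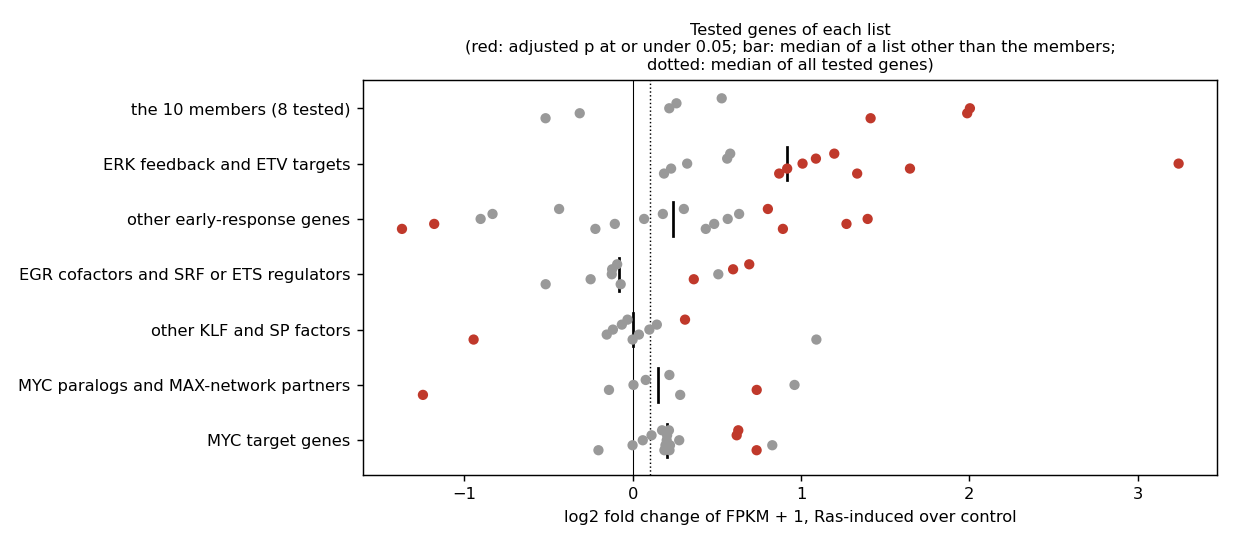
Log2 fold change on the log2(FPKM + 1) scale of every tested gene of the members and of 6 lists, Ras-induced over control, 1 point per gene. Red points passed the test, black bars are the medians of the 6 lists, from -0.08 for the EGR cofactors to 0.92 for the ERK targets, and the dotted line is the median of all tested genes.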

How the data were processed

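The 6 libraries were poly(A) RNA-seq of ERRAS cells in mitosis, 3 uninduced and 3 induced. The authors trimmed reads (Trim Galore 0.3.0, per the submitters' processing notes), aligned them to hg19 with TopHat2 and Ensembl junctions, and deposited FPKM per gene and library from Cufflinks. The columns give a group and a number, so each library served as a replicate within its group. No scaling between libraries is given in the sources used here, nor are read counts, so absolute depth is unknown and no counting interval is given. A deposited cuffdiff table (group FPKM, fold changes, p-values) was not used. Of 63129 listed genes, 120 with more than 6 values were left out, together with 18 unnamed columns that hold their extra values.

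The main test was limma 3.58.1 (R 4.3.3, mean-variance trend, two-sided, no block) on log2(FPKM + 1) for genes averaging 1 FPKM or more, adjusted over 13993 genes. No count model was run on FPKM, and fold changes of low genes are understated. On simulated data from these genes, 100 of the 13993 were changed by each size, with normal noise. There 85.0% of genes changed by 2 and 70.0% of those changed by 1 (log2) were recovered, and 11 unchanged genes were called. In the real data 16.7% were altered, so these shares need not hold there. Members with no test got an exact permutation test. Alternatives were another pseudocount, filter or scaling, no trend, a replicate block, a fold minimum, summed rows of a symbol and leaving out each library. Named genes were the members, HRAS, the altered genes of 6 lists with the 3 largest changes each way, FOS, JUN, MCL1, NAB2, SRF and MAX, and cell type markers, and counts of 5 or fewer could be named in full. The members and lists were chosen with earlier results of these data known. Python 3.11.15, pandas 2.3.3 and matplotlib 3.10.9 were used. The level of 1 marker gene is not reported here.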

Additional observations from a re-analysis of the deposited data

How the results depend on the processing

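EGR1, EGR3 and IER3 kept their direction and call under each of the alternatives in which they were tested. EGR3 was not tested at a minimum of 5 FPKM, which left 2 members called, and the count of called members lay between 2 and 4 over all alternatives. MYC was called with quantile normalization (-0.62) and with the replicate block (-0.52), and IER2 without the mean-variance trend (0.53). KLF2, KLF6 and KLF10 stayed uncalled with the same sign. With a pseudocount of 0.1 the untested differences grew to 1.30 for EGR2 and 0.48 for KLF4.

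Over all genes, 2336 were altered, 1518 without a filter on low values, 548 when the change also had to reach 1 in either direction (log2), and 860 to 1872 with 1 library left out. That stricter call left 0 EGR cofactors, 0 MYC targets, 0 KLF and SP genes and 1 MAX-network gene. KLF and SP genes came to 1 without a filter, with a minimum of 5 FPKM, with either other scaling and with the replicate block. With 1 library left out the counts ran from 1 to 4 for EGR cofactors, 5 to 7 for ERK targets, 1 to 2 for the MAX network, 1 to 3 for MYC targets and 0 to 2 for KLF and SP genes. The cause of these changes was not tested, beyond the smaller number of libraries.

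The labels tie no library number to a pair of samples. Deviations of same-numbered libraries correlated at -0.00266, 0.0433 and 0.0481 across genes, which are not independent. Such correlations cannot show whether the libraries were paired. With the replicate block 2310 genes were altered, MYC passed at a limma adjusted p = 0.0492, and no other member's call changed. In the lists the block added JUN (higher), GADD45B and ETS1 (both lower) and lost KLF16 and ODC1. Libraries 2 and 3 of each group correlated best with their own number, and library 1 of each group did not.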
